A study of Mus musculus with 2 samples.

Results

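The 10 genes encoding S100 calcium-binding proteins were described across the cell classes of the mouse spinal cord at postnatal day 4. The members were chosen by symbol, as S100a1, S100a4, S100a6, S100a8, S100a9, S100a10, S100a11, S100a13, S100a16 and S100b, and are 10 of the 32285 genes in the files. S100 proteins are small EF-hand proteins that work as dimers and bind target proteins when calcium rises. Some act inside the cell on annexins, myosin or calcium pumps, and others are released and bind receptors on other cells. In nervous tissue S100b is best known from astrocytes, and S100a8 and S100a9 together form calprotectin, the abundant calcium-binding complex of neutrophils.

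Single-cell RNA-seq was performed on whole spinal cords of FVB mice, with 1 library for each of 2 groups. The SMA library came from mice of the severe Taiwanese model of spinal muscular atrophy (SMA), with the genotype mSmn-/-, hSMN22tg/0. The Con library came from littermates with the genotype mSmn+/-, hSMN22tg/0, so both groups carried the human SMN2 transgene and lacked at least 1 mouse Smn allele. Per the study's methods, spinal cords of several littermates were pooled into each library and dissociated with trypsin and collagenase. With 1 library per group there is no replicate check, no statistical test was run, and every interval below is a 95% interval that covers counting error only.

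SMA and Con below mean the libraries so labelled. They held 26921 and 25419 barcodes with 85872075 and 97894084 unique molecular identifiers (UMIs), and shared 8163 barcodes. Of the Con barcodes with at least 5000 UMIs, 99.0% were also in SMA, where the copy held a median of 17.6% of the UMIs, so shared barcodes were taken out of SMA. After filters, 6787 SMA cells and 8918 Con cells were kept, with medians of 6109 and 6229 UMIs. Outside the erythroid-like class the targeted gene Smn1 was at 51.9 CPM (UMIs of the gene in 1000000 UMIs of the cells concerned) in SMA and 50.5 CPM in Con, a log2 ratio of 0.04 (-0.04 to 0.12), so its level did not separate the libraries. Xist was at 1.47 CPM in SMA and 611 CPM in Con, and 4 Y-linked genes were at 166 and 72.7 CPM, so the sex make-up of the pools differed, and it cannot be told apart from genotype here. Cells were clustered without the S100 genes, and 31 of 32 clusters were named from fixed marker genes. A class is called, for example, astrocyte-like because its name was rebuilt here, COP stands for committed oligodendrocyte precursor and OPC for oligodendrocyte precursor cell.

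Of the 10 members, 9 lie on chromosome 3 (GRCm38, GENCODE M21), and S100b lies on chromosome 10 at 76253853 to 76261159 on the plus strand. S100a1 (90511034 to 90514392, minus strand) and S100a13 (90514435 to 90524581, plus strand) start next to each other and point away from each other. S100a8 (90668978 to 90670035, plus strand) and S100a9 (90692632 to 90695721, minus strand) are neighbours that point towards each other. Promoter windows of 250 bases before the RefSeq start (RefSeq, GRCm38.p6) matched 9 of the 10 members, and S100a10 had no entry. The windows of these 2 pairs are shown because the members of each pair had like levels across the classes. In the window before S100a13 (chr3:90514185-90514434, plus strand) the capitals mark the 104 bases that also belong to the window before S100a1, on the other strand, chr3:90514331-90514434:

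S100a13: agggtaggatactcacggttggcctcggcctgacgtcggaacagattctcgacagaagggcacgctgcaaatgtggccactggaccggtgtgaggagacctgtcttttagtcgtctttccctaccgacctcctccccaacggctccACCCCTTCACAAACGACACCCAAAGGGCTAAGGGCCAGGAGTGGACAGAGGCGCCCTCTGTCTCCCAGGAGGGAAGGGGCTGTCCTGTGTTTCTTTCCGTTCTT

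In the windows before S100a8 (chr3:90668821-90669070, plus strand) and S100a9 (chr3:90695722-90695971, minus strand) the capitals mark matches to TTNNGNAA on either strand, the core of the motif bound by C/EBP factors of myeloid cells:

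S100a8: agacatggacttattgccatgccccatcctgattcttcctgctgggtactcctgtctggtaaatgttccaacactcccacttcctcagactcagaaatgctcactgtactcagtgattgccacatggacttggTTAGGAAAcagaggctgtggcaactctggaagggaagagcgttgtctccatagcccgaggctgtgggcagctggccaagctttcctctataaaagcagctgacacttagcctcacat
S100a9: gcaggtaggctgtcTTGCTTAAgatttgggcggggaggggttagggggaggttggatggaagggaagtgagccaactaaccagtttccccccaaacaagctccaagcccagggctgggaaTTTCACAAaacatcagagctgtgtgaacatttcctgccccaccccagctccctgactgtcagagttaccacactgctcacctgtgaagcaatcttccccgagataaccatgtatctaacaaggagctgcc

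S100a8 had 1 match, whose first base was 117 bases before the start, and S100a9 had 2, at 236 and 130 bases. The windows of the other members had none. Of 32851 promoter windows of the same length, 36.8% held at least 1 match and 10.9% held 2 or more, so a match is a common property of such windows and is given as a description only.

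**Figure D1:**
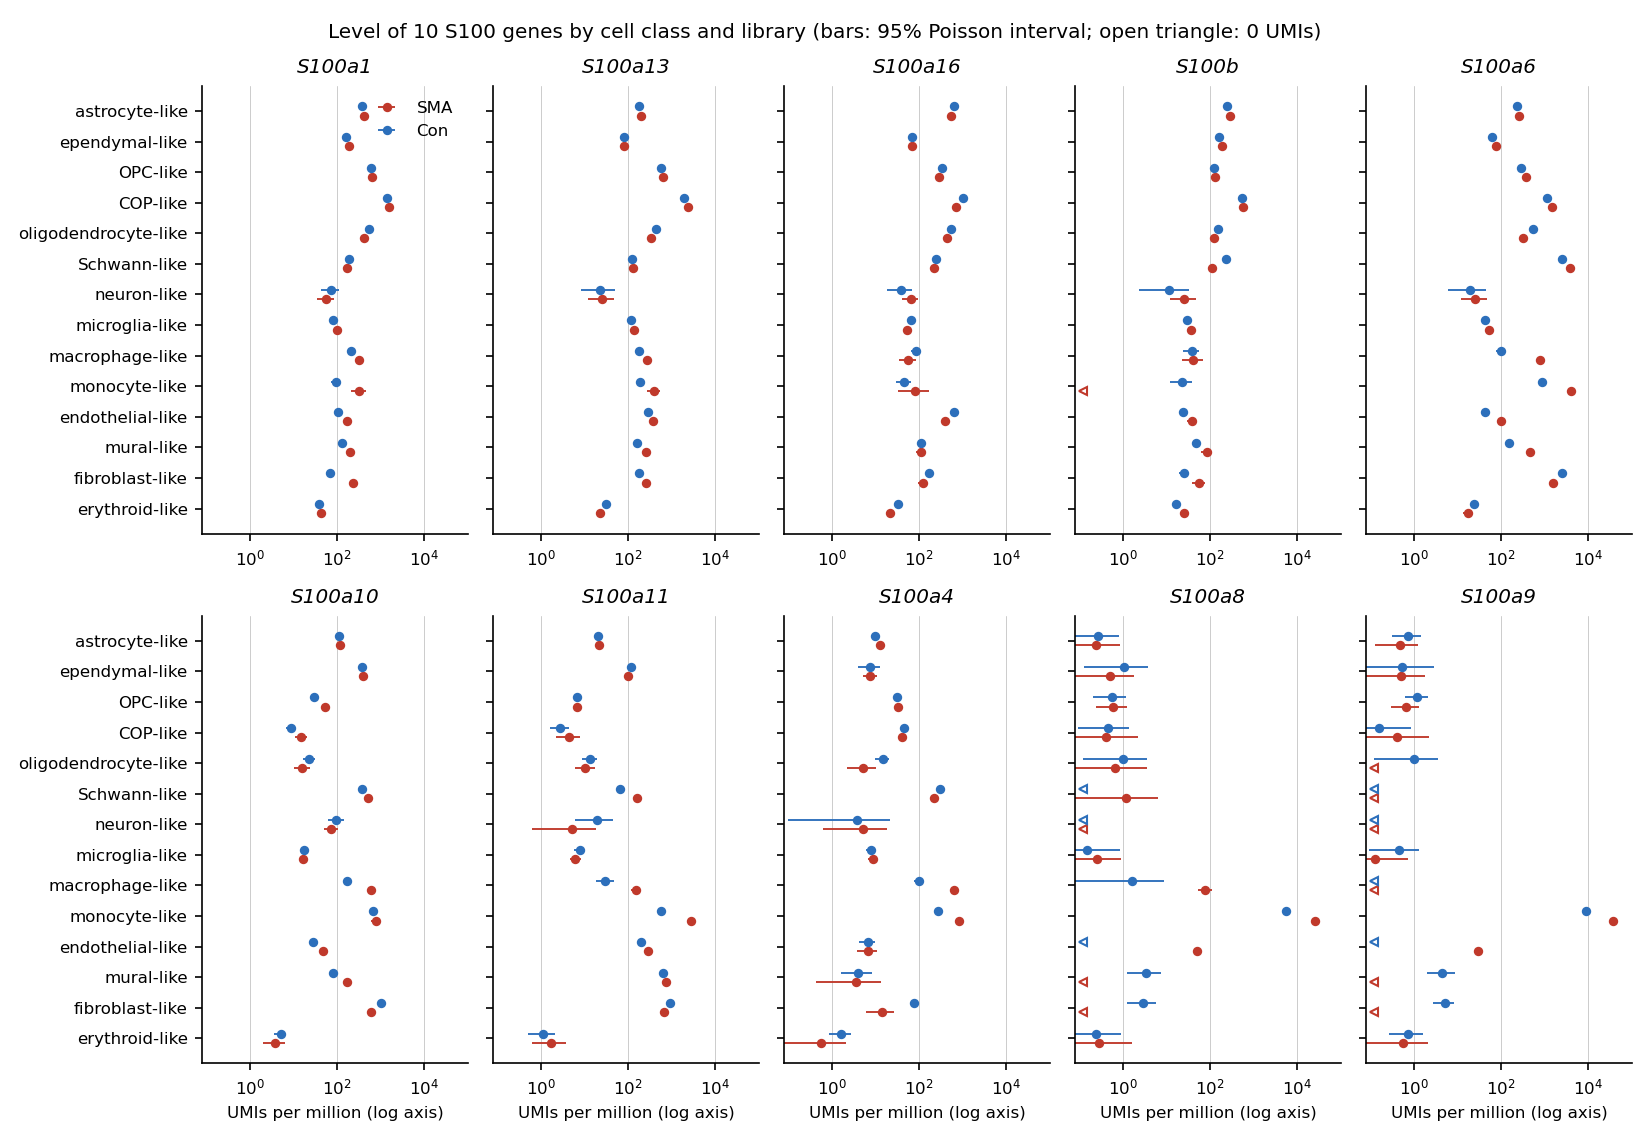
Level of each S100 gene on a log axis in CPM, by cell class, with SMA in red and Con in blue. Bars are 95% Poisson intervals and open triangles mark 0 UMIs. S100a1, S100a13, S100a16 and S100b were highest in COP-like cells. S100a8 and S100a9 stood far above all other classes in monocyte-like cells (25888 CPM in SMA and 5416 CPM in Con for S100a8). Most of their UMIs in that class came from cells with at least 2 neutrophil markers.

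S100a1, S100a13, S100b and S100a16 were highest in the oligodendrocyte lineage. S100a1, a regulator of calcium pumps and channels best known from heart muscle, was at 1530 CPM in SMA and 1413 CPM in Con in COP-like cells. Its level was 641 and 594 CPM in the OPC-like class and 417 and 545 CPM in oligodendrocyte-like cells. S100a1 thus stood highest in the intermediate stage of the lineage in both libraries, and its intervals there did not overlap those of any other class. S100a13, which takes part in the release of FGF1, had the same order, with 2336 CPM in SMA and 1911 CPM in Con in COP-like cells, 613 and 564 CPM in OPC-like cells and 332 and 430 CPM in oligodendrocyte-like cells. Each COP-like cell was thinned to 1000 UMIs to compare shares of cells at equal depth. After thinning, 88.5% of SMA and 79.2% of Con COP-like cells had a UMI of S100a13 (99.7% in both before thinning), against 2.38% and 4.50% of erythroid-like cells (18.5% and 20.0% before thinning), which should lack it and serve as the background.

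S100b was also highest in COP-like cells, at 579 CPM in SMA and 529 CPM in Con, and not in astrocyte-like cells, where it was at 287 and 244 CPM. In Con the class after astrocyte-like cells was Schwann-like, at 230 CPM, with overlapping intervals, and in SMA it was ependymal-like, at 183 CPM. S100a16, a broadly expressed member, was at 698 CPM in SMA and 1010 CPM in Con in COP-like cells, at 533 and 624 CPM in astrocyte-like cells and at 395 and 617 CPM in endothelial-like cells. In Con the intervals of astrocyte-like and endothelial-like cells overlapped.

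Over 24 class-by-library sums from 13 classes, Pearson's r of log2(CPM + 1) was 0.86 between S100a1 and S100a13, 0.85 between S100a1 and S100b, 0.78 between S100a1 and S100a16 and 0.79 between S100a13 and S100a16. It was lower between S100b and S100a16, at 0.65, and between S100b and S100a13, at 0.56. These sums share libraries and depth, and r is a description. Among all genes, those most like S100a1 were Sox8 (r = 0.94), Omg (0.94) and Ncam2 (0.94), those most like S100a13 were Sh3bp4 (0.93), Acap3 (0.93) and Lims2 (0.91), those most like S100a16 were Nav1 (0.91), Sema6a (0.89) and 4933431E20Rik (0.88), and those most like S100b were Sox2 (0.93), Rimklb (0.91) and A230057D06Rik (0.90).

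S100a6, S100a10, S100a11 and S100a4 were highest in Schwann-like, fibroblast-like or mural-like cells, outside the SMA monocyte-like and macrophage-like classes. Those held only 20 and 38 cells. In SMA monocyte-like cells, the highest class for all 4, they were at 3996, 770, 2717 and 838 CPM in this order. In the 286 Con monocyte-like cells they were at 849, 663, 559 and 266 CPM, and for S100a4 the interval overlapped that of Schwann-like cells. S100a6 (calcyclin), which binds the partner protein Cacybp, was at 3854 CPM in SMA and 2505 CPM in Con in Schwann-like cells and at 1530 and 2518 CPM in fibroblast-like cells. Cacybp itself was at 150 CPM in SMA and 148 CPM in Con in Schwann-like cells, a log2 ratio of 0.02 (-0.29 to 0.32). S100a6 was low in microglia-like cells, at 51.5 and 41.7 CPM. S100a10 (p11), which forms a complex with annexin A2, was at 597 CPM in SMA and 1032 CPM in Con in fibroblast-like cells, at 506 and 371 CPM in Schwann-like cells and at 388 and 373 CPM in ependymal-like cells. S100a11, which binds annexin A1, was at 669 CPM in SMA and 925 CPM in Con in fibroblast-like cells, at 722 and 638 CPM in mural-like cells and at 287 and 197 CPM in endothelial-like cells, but at only 4.37 and 2.75 CPM in COP-like cells. S100a4, which binds non-muscle myosin, was at 223 CPM in SMA and 305 CPM in Con in Schwann-like cells.

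Annexins were among the genes most like S100a10 and S100a11. Those most like S100a10 were Aifm2 (r = 0.93), Emp1 (0.91) and Anxa2 (0.90), and those most like S100a11 were Anxa2 (0.93), Anxa5 (0.93) and Ifitm2 (0.92). S100a6 was most like Adam23 (0.85), Sh3d19 (0.83) and Col16a1 (0.80), and S100a4 was most like Srxn1 (0.81), Cela1 (0.80) and Uap1l1 (0.78). S100a10 and S100a11 had r = 0.80 with each other, and S100a4 and S100a6 had 0.75.

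Levels also varied between clusters of 1 class. Over 5 astrocyte-like clusters with at least 50 cells in each library, S100a10 ran from 40.7 to 241 CPM in Con and from 48.2 to 279 CPM in SMA, with the highest value in both in the cluster led by Cidea and Gfap, the intermediate filament of fibrous astrocytes. In the same clusters S100b ran only from 183 to 291 CPM in Con and from 265 to 326 CPM in SMA. Over 5 OPC-like clusters S100a13 ran from 299 to 697 CPM in Con and from 318 to 824 CPM in SMA, lowest in both in the cluster led by histone genes of S phase.

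S100a8 and S100a9 were confined to few cells. In monocyte-like cells S100a8 was at 25888 CPM in SMA (20 cells, 2287 UMIs) and 5416 CPM in Con (286 cells, 3159 UMIs), and S100a9 was at 37287 and 8742 CPM. In every other class of Con S100a8 was at most 3.36 CPM and S100a9 at most 5.03 CPM. The SMA class holds under 50 cells, and the classes differed in make-up, so the higher SMA level is given as a value only. In SMA, 7 of the 20 cells had UMIs of at least 2 of 11 neutrophil markers (among them Camp, Ngp and Ltf), and these 7 held 5302 UMIs of S100a8 and S100a9. In Con it was 16 of 286 cells, 15 of them with S100a8 or S100a9, and they held 7804 UMIs. Among these cells, the 2 genes were together at 192492 CPM in SMA and 109829 CPM in Con. In the other 13 SMA and 270 Con cells of the class they were together at 4589 and 886 CPM. The summed neutrophil list was at 19696 CPM in SMA monocyte-like cells, with 9 of 11 markers detected and Elane and Mpo at 0, and at 7934 CPM in Con, with 11 of 11 detected, and its part in the difference was not tested. The Con monocyte-like cells also had a low median share of mitochondrial UMIs, 2.63% against 6.37% in SMA, and a median of 1494.5 UMIs against 3849.

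Cell by cell, S100a9 never occurred without S100a8 in the monocyte-like class. In SMA 15 of 20 cells had S100a8 and 9 of those had S100a9 as well, and in Con 31 of 286 had S100a8 and 19 had both. Of the cells with either gene and at least 2 neutrophil markers, 6 of 7 in SMA and 13 of 15 in Con held more S100a9 than S100a8. Of the cells with either gene and fewer markers, 7 of 8 in SMA and 13 of 16 in Con held more S100a8. Of these, 6 and 10 held S100a8 with no S100a9 UMI. The highest such cell had 25 UMIs of S100a8 in SMA and 3 in Con. In the 38 macrophage-like cells of SMA, 7 held 28 UMIs of S100a8 and none of S100a9, against 1 UMI in 64 cells of Con. The count of 0 for S100a9 allows at most 8.24 CPM in these SMA cells, counting 3 UMIs. In the erythroid-like class, which should lack both genes, either was seen in 0.79% of SMA and 0.78% of Con cells. The 12 Con monocyte-like cells and the 1 Con macrophage-like cell with S100a8 alone held at most 3 UMIs of it, and at so few UMIs the lack of S100a9 says little. In SMA, 5 of the 6 such monocyte-like cells and 4 of the 7 macrophage-like cells held 4 or more.

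The same macrophage-like cells of SMA were higher in other members too. S100a4 was at 618 CPM in SMA and 99.8 CPM in Con, S100a6 at 788 and 99.8 CPM and S100a10 at 610 and 172 CPM. S100a4 came from 13 of 38 cells in SMA and 12 of 64 in Con. With 38 cells in SMA the class was below the limit of 50 cells for a comparison. In the receptors of the secreted members, Ager had 0 UMIs in monocyte-like cells of either library and Tlr4 had 2 in SMA and 1 in Con. Over the class-by-library sums S100a8 and S100a9 had r = 0.98 with each other, the highest of any gene with either. Only sums of at least 50 cells were used, so the SMA monocyte-like cells were left out. After the Con monocyte-like sum both genes were highest in SMA endothelial-like cells, at 50.8 and 29.9 CPM, nearly all from 1 cell. These r values thus rest on few sums. The next were Stfa3 (0.96) and Cstdc4 (0.94) for S100a8 and Cstdc4 (0.96) and Cstdc5 (0.95) for S100a9, genes of the stefin and cystatin family of protease inhibitors.

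**Figure D2:**
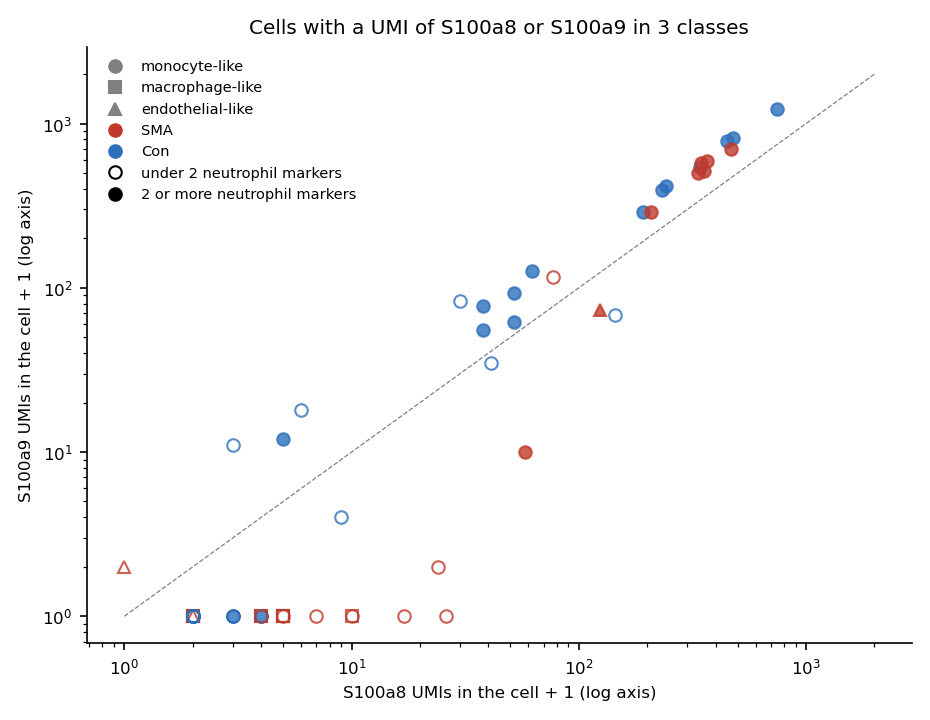
UMIs of S100a8 (x axis) and S100a9 (y axis) in single cells, each plus 1 on a log axis, for the cells with either gene in monocyte-like (circles), macrophage-like (squares) and endothelial-like (triangles) classes. SMA is red and Con blue, and filled symbols have at least 2 neutrophil markers. Filled circles lie mostly above the dashed line of equal counts, the 7 red squares lie at 0 S100a9, and 1 endothelial-like cell of SMA has 123 and 72 UMIs.

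SMA was set against Con for 77 pairs of a member and a class, each with at least 100 UMIs over both libraries, in the 11 classes where both had 50 cells or more. The log2 ratio of SMA over Con was positive in 49 pairs and negative in 28. The pairs share 2 libraries and the share of all genes with each sign is not given here. Nothing is therefore read from these 2 counts. The ratio reached 2-fold in 9 pairs, 7 higher and 2 lower in SMA, in 4 classes, which are Schwann-like, endothelial-like, mural-like and fibroblast-like cells. The share of all genes past 2-fold in the direction of these calls was 0.883% to 1.42% in the first 3 of these classes, and 4.69% higher and 12.7% lower in fibroblast-like cells. Of the 7, S100a8 in endothelial-like cells had 0 UMIs in Con, so it could pass the minimum of UMIs only by being higher in SMA. Of the 2 lower, S100a4 in fibroblast-like cells had 8 UMIs in SMA and 211 in Con, so it passed through Con alone. The median log2 ratio of all genes compared lay between -0.04 and 0.06 in every class, so the libraries were centred alike. No pair reached 2-fold in the astrocyte-like, ependymal-like, OPC-like, COP-like, oligodendrocyte-like, microglia-like or erythroid-like class. The share of all genes at least 2-fold higher or lower was also small in these classes, between 0.119% and 1.41% in each direction. Of the 17 genes of S100 partners and receptors, 107 pairs with a class had enough UMIs, and 4 were at least 2-fold lower and 0 higher, all 4 in fibroblast-like cells, where 12.7% of all genes were lower by as much.

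**Figure D3:**
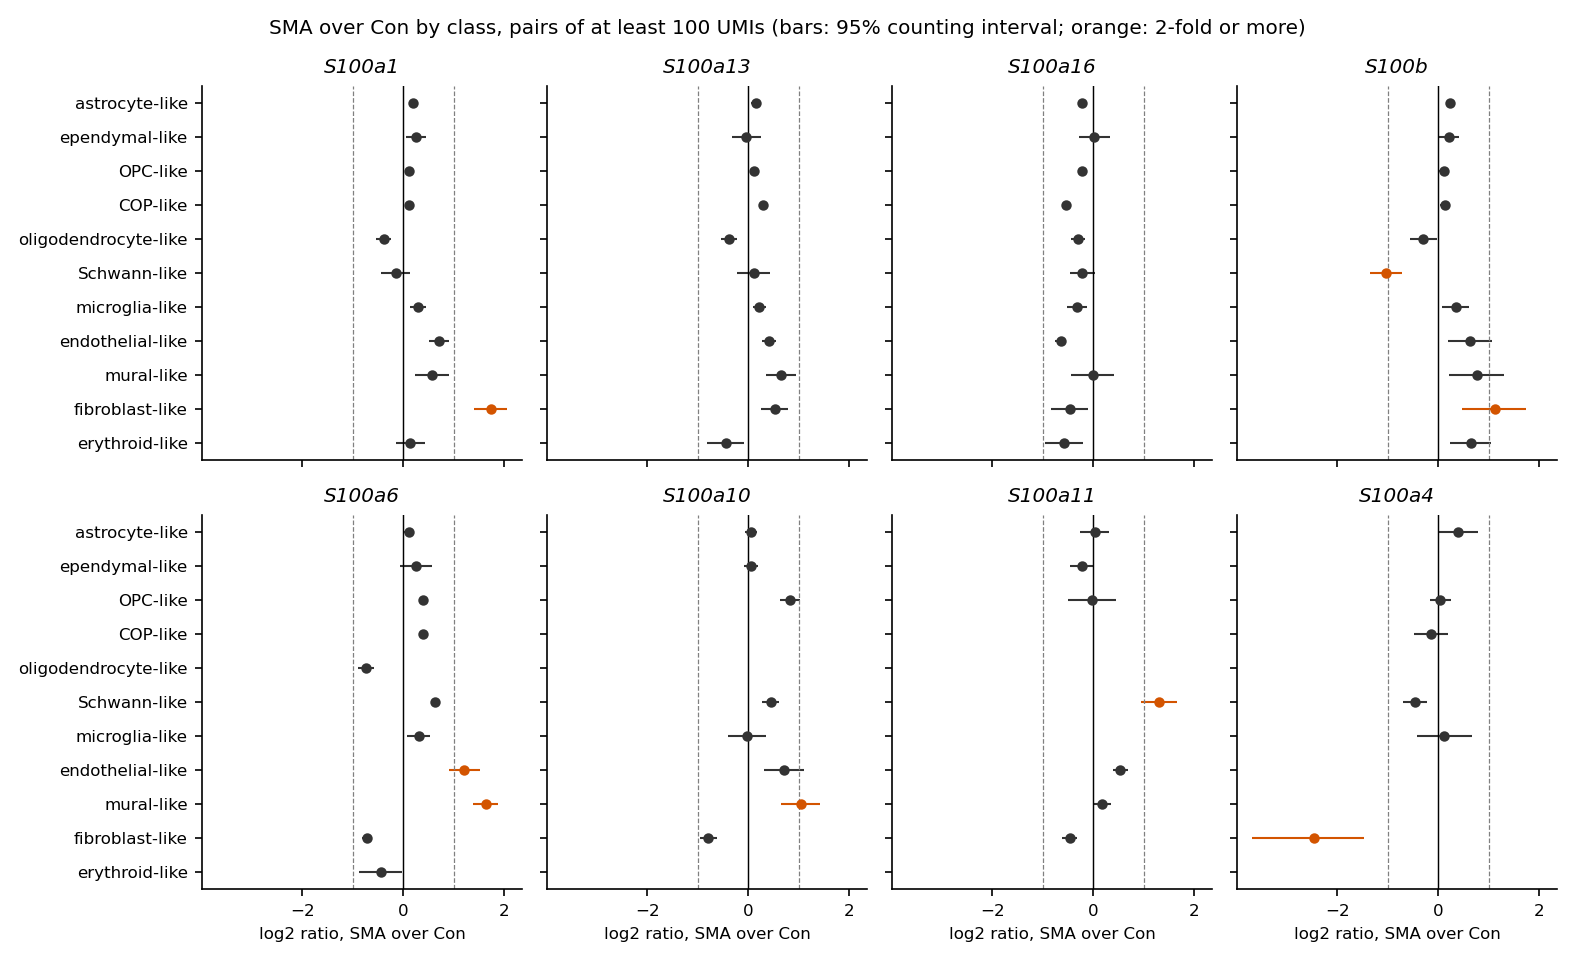
Log2 ratio of SMA over Con for 8 S100 genes in the classes where the gene had at least 100 UMIs, with 95% intervals for counting error. The dashed lines mark 2-fold, orange points are past it, and points right of 0 are higher in SMA. S100a16 lies left of 0 in 10 of 11 classes, S100a1 and S100b right of 0 in 9, and S100a6 and S100a13 right of 0 in 8.

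S100a16 was lower in SMA in 10 of 11 classes, with the interval below 0 in 8. Fibroblast-like cells are among these, at -0.46 (-0.84 to -0.10), but were at 0.44 (0.0012 to 0.87) without the sub-clusters found in Con alone, and at 0.076 (-0.50 to 0.63) without a further one rich in astrocyte markers. In COP-like cells it was at 698 CPM in SMA and 1010 CPM in Con, a log2 ratio of -0.53 (-0.61 to -0.46). In endothelial-like cells it was at 395 and 617 CPM, a ratio of -0.64 (-0.75 to -0.53). The ratio was -0.23 (-0.28 to -0.17) in astrocyte-like, -0.22 (-0.29 to -0.15) in OPC-like and -0.32 (-0.52 to -0.12) in microglia-like cells. The exceptions near 0 were ependymal-like cells at 0.02 (-0.29 to 0.33) and mural-like cells at -0.0025 (-0.44 to 0.42). S100a16 was lower in SMA in 4 of 5 astrocyte-like, 5 of 5 OPC-like and both COP-like clusters, which share the 2 libraries. The erythroid-like class, which should lack the gene, was at 21.6 CPM in SMA and 32.2 CPM in Con, a ratio of -0.58 (-0.96 to -0.20). The part of this background in the other ratios was not tested.

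Of the members compared in 11 classes, S100a1 and S100b were each higher in SMA in 9 and S100a13 in 8. S100a6 was likewise higher in SMA in 8 of 11 classes. In the OPC-like class it was at 372 CPM in SMA and 283 CPM in Con, which gave a log2 ratio of 0.39 (0.33 to 0.46), and it was higher in 5 of 5 clusters. In COP-like cells the ratio was 0.38 (0.33 to 0.44), and in Schwann-like cells, at 3854 and 2505 CPM, it was 0.62 (0.56 to 0.69). In the erythroid-like background S100a6 was at 17.6 CPM in SMA and 23.8 CPM in Con, and the part of this background was not tested. In oligodendrocyte-like cells S100a6 was lower in SMA, at 315 and 524 CPM, a ratio of -0.73 (-0.89 to -0.58). All 5 members compared in that class were lower in SMA: S100a1 at -0.39, S100a13 at -0.37, S100a16 at -0.30 and S100b at -0.30 beside S100a6. The median of all genes compared there was 0.026, and the share of all genes that were lower is not given here. This class had a median of 4324 UMIs per cell in SMA and 1758 in Con, and the part of that depth gap was not tested.

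In the OPC-like class S100a10 had 613 UMIs in SMA and 316 in Con, or 51.2 and 29.0 CPM, which gave a log2 ratio of 0.82 (0.62 to 1.02). It was higher in SMA in 5 of 5 OPC-like clusters. After thinning to 1000 UMIs, 4.57% of SMA and 2.41% of Con OPC-like cells had a UMI (21.9% and 13.3% before), against 0.53% and 0.56% of erythroid-like cells. In astrocyte-like cells the ratio was only 0.05 (-0.07 to 0.17).

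**Figure D4:**
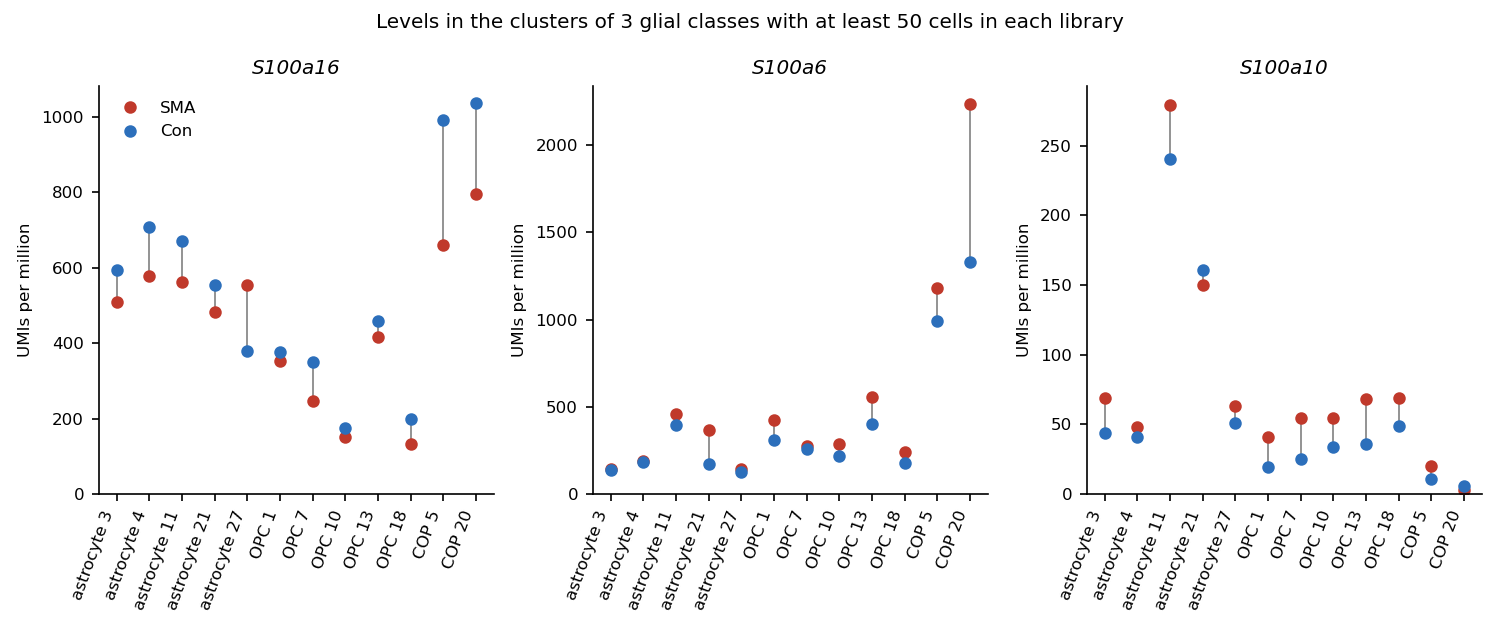
Level of S100a16, S100a6 and S100a10 in CPM, from 0, in the clusters of astrocyte-like, OPC-like and COP-like cells that hold at least 50 cells of each library, with SMA in red, Con in blue and a line joining both. S100a16 was lower in SMA in 11 of the 12 clusters shown, S100a6 was higher in all 12, and S100a10 was higher in all 5 OPC-like clusters.

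In Schwann-like cells (91 SMA and 213 Con), S100a11 was at 161 CPM in SMA and 65.5 CPM in Con, a log2 ratio of 1.30 (0.95 to 1.66). S100b was at 112 CPM in SMA and 230 CPM in Con, a ratio of -1.03 (-1.36 to -0.71). Of 8 members compared, 1 was thus at least 2-fold higher and 1 at least 2-fold lower, where 1.42% and 0.883% of all genes were. S100a4 was lower, at 223 and 305 CPM, a ratio of -0.45 (-0.69 to -0.22), and S100a10 higher, at 0.45 (0.27 to 0.62). The summed fibroblast list was at 2476 and 2482 CPM in these cells, with Dcn at 0 in SMA. The erythroid list was at 524 CPM in SMA, with 6 of 10 markers detected, and 29157 CPM in Con, with 9 of 10, and its part was not tested. The ratio of S100b was under 2-fold when shared barcodes were kept (-0.64), with cells up to a mitochondrial share of 20% (-0.84) and with each cell weighted equally (-0.86).

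In mural-like cells (92 SMA and 260 Con), S100a6 was at 456 CPM in SMA and 147 CPM in Con, a log2 ratio of 1.64 (1.38 to 1.89). After thinning, 20.7% of SMA and 7.34% of Con mural-like cells had a UMI (41.3% and 34.6% before), against 2.12% and 2.59% of erythroid-like cells. S100a10 was at 166 and 80.7 CPM, a ratio of 1.04 (0.65 to 1.43). Of 7 members compared these 2 were at least 2-fold higher, where 1.05% of all genes were. S100a11 was at 722 and 638 CPM, a ratio of 0.18 (0.01 to 0.34). The summed fibroblast list was at 1178 CPM in SMA, with 8 of 9 markers detected and Lum at 0, and 774 CPM in Con, with 9 of 9, and its part was not tested. With cells up to a mitochondrial share of 20% S100a6 was at 0.91 and S100a10 at 0.92, and without the cell with most UMIs in each library they were at 1.58 and 0.91.

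In endothelial-like cells (325 SMA and 432 Con) S100a6 and S100a8 were past 2-fold, where 1.02% of all genes were at least 2-fold higher, and nothing is read from this count of members, since S100a8 passed the minimum of UMIs through SMA alone. Single cells weighed heavily in both. S100a8 had 124 UMIs in SMA and 0 in Con, and 1 cell with 9547 UMIs in all and 4 neutrophil markers held 123 of them, beside 72 of the 73 UMIs of S100a9. The neutrophil list as a whole was at 22.5 CPM in SMA and 15.3 CPM in Con, with Ly6g and Camp at 0 in both. S100a6 was at 97.5 CPM in SMA and 42.0 CPM in Con, a log2 ratio of 1.22 (0.91 to 1.52), and 1 cell held 34.5% of the 238 UMIs in SMA. Without the highest cell of each library the ratio of S100a6 was 0.74 (0.39 to 1.08), with equal weight per cell it was 0.38, and with no upper limit on genes it was 0.40 (0.21 to 0.58). S100a1 was at 0.71 (0.51 to 0.92) and S100a11 at 0.54 (0.39 to 0.69), and S100a4, with under 100 UMIs, was at 0.0073 (-1.01 to 0.99). Of the 2 endothelial-like clusters, S100a1 and S100a10 were higher in SMA and S100a16 lower in both, while S100a6, S100a11, S100a13 and S100b were each higher in 1 and lower in the other.

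In fibroblast-like cells the comparison turned on which cells Con held. Over all 63 SMA and 599 Con cells, S100a4 was at 13.7 CPM in SMA and 75.8 CPM in Con, 8 UMIs against 211, a log2 ratio of -2.47 (-3.70 to -1.46). S100a10 was at 597 and 1032 CPM, a ratio of -0.79 (-0.95 to -0.63), S100a6 at 1530 and 2518 CPM, a ratio of -0.72 (-0.82 to -0.62), and S100a11 at 669 and 925 CPM, a ratio of -0.47 (-0.62 to -0.31). In cells of at least 5000 UMIs S100a10 was at 0.40 (0.22 to 0.59) and S100a11 at 0.34 (0.16 to 0.51), on the other side of 0. S100a1 was at 224 and 67.1 CPM, a ratio of 1.74 (1.41 to 2.07), and S100b at 54.8 and 25.1 CPM, a ratio of 1.12 (0.47 to 1.75). Of 8 members compared 2 were at least 2-fold higher and 1 lower, where 4.69% and 12.7% of all genes were. The 1 lower, S100a4, passed the minimum of UMIs through Con alone, so nothing is read from that count. The partner genes past 2-fold were Anxa1 at -1.68, Anxa2 at -1.07, Ahnak at -1.32 and Myh9, the myosin heavy chain bound by S100a4, at -2.86.

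These cells were clustered again without the S100 and partner genes. Of 6 sub-clusters, 3 held 430 Con cells and no SMA cell, and were led by Serpinb2 and Timp1, by Pi16 and C3, and by C1qtnf3 and Thbs4. A median of 2.08% of their UMIs was mitochondrial, while it was 6.29% in the 169 remaining Con cells and 6.77% in the 63 SMA cells. Of their cells with at least 5000 UMIs 1 of 68 was among the shared barcodes, against 151 of 151 of the other Con fibroblast-like cells. Within Con, S100a10 was at 2029 CPM in the 430 cells and 101 CPM in the 169, 20.0-fold higher. S100a4 was 9.20-fold, S100a11 5.43-fold, S100a16 2.80-fold and S100a6 2.35-fold higher there, S100a1 was 2.42-fold lower, and S100b, with 70 UMIs in all, was 12.1-fold lower. Of 7 members with at least 100 UMIs, 5 were at least 2-fold higher and 1 lower, where 15.4% and 14.8% of all genes were. Among the 5, S100a4 passed the minimum of UMIs through the 430 cells alone (189 UMIs against 22). Nothing is therefore read from this count of members.

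Without the Con-only sub-clusters several members changed side. S100a10 was then at 597 CPM in SMA and 101 CPM in Con, a log2 ratio of 2.56 (2.28 to 2.85). S100a11 was at 669 and 294 CPM, a ratio of 1.18 (0.98 to 1.39), S100a1 was at 224 and 93.7 CPM, a ratio of 1.26 (0.90 to 1.62), and S100a13 was at 252 and 133 CPM, a ratio of 0.92 (0.60 to 1.23). S100a6 was at 1530 and 1525 CPM, a ratio of 0.0043 (-0.11 to 0.12). S100a4, with 8 and 22 UMIs, was at 13.7 and 15.3 CPM, a ratio of -0.16 (-1.54 to 1.06). S100a16 was at 121.5 and 89.6 CPM, a ratio of 0.44 (0.0012 to 0.87), and S100b, with 32 and 65 UMIs, was at 0.28 (-0.38 to 0.91). Of 6 members compared 3 were at least 2-fold higher and 0 lower, where 2.78% and 5.23% of all genes were. Of the partner genes, Anxa1 was then at 1.69 (1.24 to 2.14), Anxa2 at 0.42 (0.23 to 0.60), Ahnak at 0.58 (0.12 to 1.03) and Myh9, with 10 and 22 UMIs, at 0.16 (-1.08 to 1.30). The largest sub-cluster with both libraries, led by Ptgds and Wnt6, had S100a10 at 713 CPM in 44 SMA cells and 108 CPM in 69 Con cells. S100a10 was higher in SMA in both smaller ones as well, at 495 and 109 CPM in that led by Tgfbi and Penk (6 SMA and 76 Con cells) and at 246 and 56.6 CPM in that led by Bcan and Fabp7. The summed fibroblast list over all cells of the class was at 10136 CPM in SMA and 26999 CPM in Con, with 9 of 9 markers detected in both.

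The astrocyte list was at 2620 CPM in SMA fibroblast-like cells and 945 CPM in Con, with 10 of 10 markers detected in both. It was highest in the sub-cluster led by Bcan, Fabp7 and Aqp4 (13 SMA and 24 Con cells), at 2912 CPM, where S100a1 was at 468 CPM in SMA and 149 CPM in Con and S100b at 151 and 61.7 CPM. With that sub-cluster left out as well, S100a1 was at 0.88 (0.43 to 1.33) and S100a10 at 2.68 (2.38 to 2.98). S100a13 was at 0.41 (-0.0098 to 0.81) and S100b, with under 100 UMIs, at -0.58 (-1.58 to 0.31). S100a10 and S100a11 thus stayed past 2-fold without these cells, and S100a1 did not. The list was also at 1990 and 1534 CPM in the other 2 sub-clusters with cells of both libraries, against 62.0 to 140 CPM in the Con-only ones, so the cells that remained still held astrocyte transcripts, whose part was not tested.

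**Figure D5:**
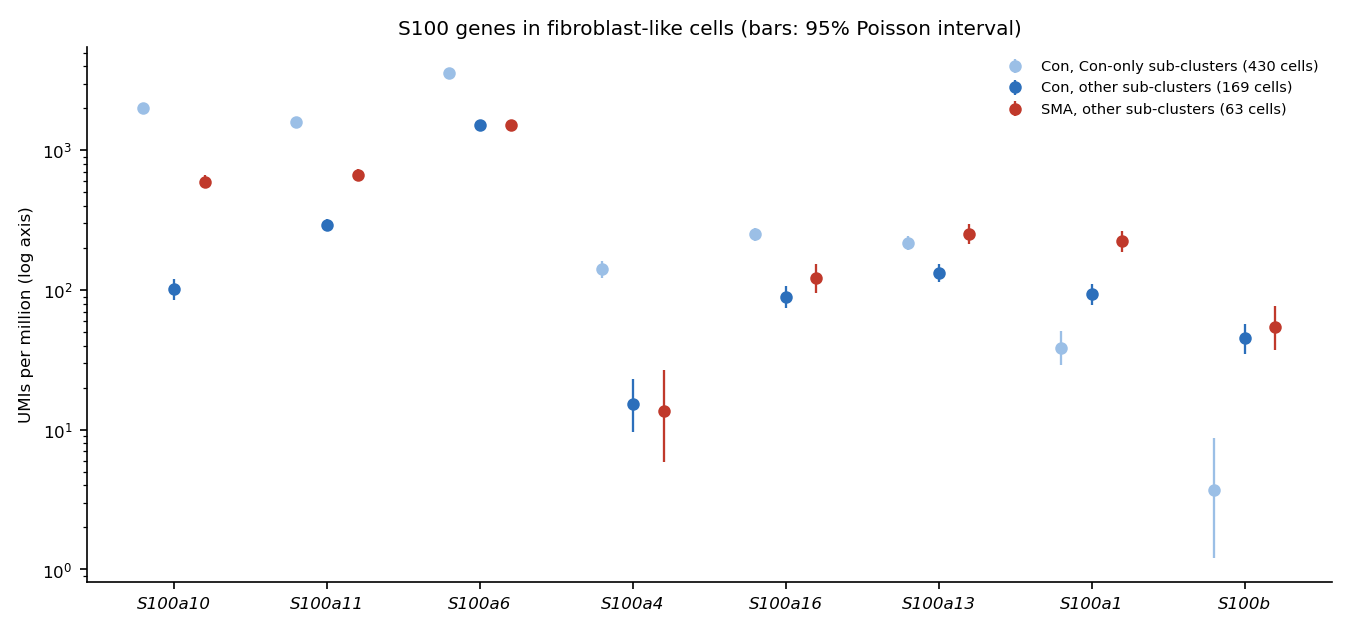
Level of 8 S100 genes in fibroblast-like cells on a log axis in CPM, with 95% Poisson intervals, for the Con-only sub-clusters (light blue), the other Con cells (blue) and the SMA cells (red). SMA lies below the Con-only cells and above the other Con cells for S100a10 (597 against 2029 and 101 CPM) and S100a11.

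Of the other S100 family genes looked up, 7 of 8 were in the feature table. S100a2 had 177 UMIs in SMA and 307 in Con over all kept cells and S100a3 had 191 and 269. S100a14 had 20 and 46 UMIs, S100a7a 4 and 10, S100a5 1 in each, S100g 1 and 0, and S100z 0 in both.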

How the data were processed

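Single-cell RNA-seq of 2 libraries was analysed, 1 labelled SMA and 1 labelled Con, and groups came from the labels. The deposited files hold UMI counts per gene and barcode, which the authors made from 10x Genomics 3′ libraries by running Cell Ranger, version 4.0.0 per the file headers, while the study's methods name another version. The submitters' processing notes name Seurat 3.2.2 and the build mm10, and the counts are not normalized. SMA barcodes also listed for Con were left out. Cells with at least 200 and at most 4000 genes and under 10% mitochondrial UMIs were kept, and 1338 Con barcodes of a cluster high in ribosomal-protein genes (30% or more of UMIs) were left out. Doublets were not called beyond the limit on genes. Counts were scaled to 10000 per cell and logged, and 2000 variable genes gave 30 principal components, 20 neighbours and Louvain clusters (igraph 0.11.9, scikit-learn 1.9.0, SciPy 1.17.1, NumPy 2.4.6, pandas 2.3.3, Python 3.11.15; figures with Matplotlib 3.10.9). The S100 and partner genes, mitochondrial, ribosomal-protein and Y-linked genes, Smn1, Xist, Tsix and 4 erythroid markers were kept out of all clustering.

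Levels are CPM of summed UMIs with exact Poisson intervals. Ratios have exact conditional binomial intervals, shares of cells have Clopper-Pearson intervals, and all cover counting error only. A pair was compared with the 2-fold limit given at least 100 UMIs in a class of at least 50 cells per library, and 0 UMIs were read as at most 3. Scripts were tested on simulated data. The members, gene lists and comparisons were chosen with earlier results of these data known. All 10 members are named, partners only in the class where their member was highest or past 2-fold, and for likeness the 3 genes of highest r. Alternatives were the shared barcodes kept, cells of 5000 or more UMIs, a 20% mitochondrial limit, the ribosomal cluster kept, resolution 2, equal weight per cell, centring on the median gene, no upper limit on genes, 50 or 300 UMIs and leaving out Con-only fibroblast sub-clusters. A further pair, leaving out the highest cell of each library or also the astrocyte-rich fibroblast sub-cluster, were chosen after seeing the data.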

Additional observations from a re-analysis of the deposited data

Results flagged for a closer look

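S100b went opposite ways in 2 classes. In fibroblast-like cells its log2 ratio of SMA over Con was 1.12, and in Schwann-like cells it was -1.03. Without the Con-only sub-clusters the fibroblast-like value was 0.28 (-0.38 to 0.91), and without the astrocyte-rich one as well it was -0.58 (-1.58 to 0.31). Both rest on under 100 UMIs and have intervals across 0, so no direction is read from them. With shared barcodes kept the Schwann-like value was -0.64. With 1 library per group the difference between the classes was not tested.

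The 1338 Con barcodes high in ribosomal-protein genes, left out of every class, held S100 transcripts above the limit that 3 UMIs set. They had a median of 726 UMIs and a median mitochondrial share of 0.148%, and no SMA barcode was among them. S100a6 was at 235 CPM there, S100a4 and S100a10 were each at 18.3 CPM, S100a11 was at 13.7 CPM, S100a1 at 11.9 CPM and S100a13 at 8.22 CPM. In erythroid-like cells of Con, the background used here, S100a1 and S100a13 were higher than that, at 38.0 and 31.2 CPM, while S100a6 was at 23.8, S100a10 at 4.99 and S100a4 at 1.58 CPM, and S100a11 was also below its level in these barcodes.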

How the results depend on the processing

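Counts of members past 2-fold moved as follows. In endothelial-like cells, 2 members were higher, and 1 with shared barcodes kept, a 20% mitochondrial limit, equal weight per cell or at least 300 UMIs, and 0 without the highest cell of each library. With no upper limit on genes the count stayed at 2, but S100a6 was at 0.40, and at 50 UMIs it was 3, with S100a9 (73 UMIs against 0) added. In mural-like cells the 2 higher became 1 with shared barcodes kept, equal weight, at least 300 UMIs or without the highest cell, and 0 with the 20% limit. In Schwann-like cells the 1 higher became 0 at 300 UMIs, and the 1 lower became 0 with shared barcodes kept, the 20% limit or equal weight. In fibroblast-like cells the 2 higher became 1 with no upper limit on genes, at 300 UMIs or without the highest cell. It was 2 in cells of at least 5000 UMIs, where S100b was at 0.83 and S100a13 at 1.04, 3 without the Con-only sub-clusters (S100a1, S100a10 and S100a11) and 2 without the astrocyte-rich one as well (S100a10 and S100a11). The 1 lower became 2 with shared barcodes kept, 3 with equal weight, and 0 in cells of at least 5000 UMIs, at 300 UMIs, without the Con-only sub-clusters and without the astrocyte-rich one as well. In microglia-like cells 0 higher became 2 with no upper limit on genes, in erythroid-like cells 0 lower became 1 with equal weight, and in oligodendrocyte-like cells 0 lower became 2 with shared barcodes kept and 1 with the ribosomal cluster kept. The UMI minimum took members out of the comparison at 300 UMIs. It also took out S100a4 in fibroblast-like cells of at least 5000 UMIs, where it was still at -1.67 (-3.04 to -0.56), S100a4 without the Con-only sub-clusters (8 and 22 UMIs), and, without the highest cell, S100a8 in endothelial-like cells (1 and 0 UMIs) and S100b in fibroblast-like cells (26 and 64 UMIs). Without the Con-only sub-clusters S100b in fibroblast-like cells was also under the minimum (32 and 65 UMIs). The cause of the remaining moves was not tested.

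Of the 77 ratios, 75 kept their direction under centring, under resolution 2 and with the ribosomal cluster kept, 74 under the 20% limit, 72 in cells of at least 5000 UMIs, 71 under equal weight, 70 with shared barcodes kept, 68 with no upper limit on genes, and 74 of 76 without the highest cell. S100b in fibroblast-like cells was at 1.12, and at -0.58 (-1.58 to 0.31) without the Con-only and the astrocyte-rich sub-clusters. It then had under 100 UMIs, so no change of side is read from it. S100a16 was lower in SMA in 9 to 11 of 11 classes under each of these settings, and S100a6 higher in 7 or 8 of 11. S100a10 in fibroblast-like cells was at 0.40 in cells of at least 5000 UMIs and at -1.23 with shared barcodes kept. No paired analysis was possible because each group has 1 library, so no replicate could be left out. S100a4 had under 100 UMIs in 5 of the 11 classes, and S100a8 in all but the endothelial-like one, so they were not compared there.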
